A study of Mus musculus with 7 samples.

Results

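Mitochondrial ribosomal protein genes were followed from the germinal vesicle (GV) oocyte to the metaphase II (MII) oocyte, with and without a ligand of RNA G-quadruplexes (rG4s). The members were the entries of the expression tables whose symbol starts with Mrpl or Mrps followed by a digit. This rule uses no measured value and found 78 of the 25912 entries. Of these, 51 encode proteins of the large subunit, among them Mrps18a and Mrps30, and 26 encode proteins of the small subunit. The remaining member, Mrps36, carries a ribosomal symbol but encodes a component of the 2-oxoglutarate dehydrogenase complex.

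Mitochondria keep their own ribosome, which translates the few messages of the mitochondrial genome into membrane-embedded subunits of the respiratory chain and the ATP synthase. Its ribosomal RNAs are mitochondrial products, whereas its proteins are encoded in the nucleus, translated in the cytosol and imported. Part of these proteins have bacterial counterparts and the rest were added in the mitochondrial lineage. The oocyte is the source of nearly all mitochondria of the embryo. Fully grown oocytes transcribe little, so maturation proceeds on stored messages, many of which are lost between the GV and MII stages.

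Smart-seq2 libraries of 10 oocytes each had been made from 3 groups, namely GV oocytes without a labelled treatment (2 libraries), MII oocytes cultured with the solvent DMSO (3 libraries) and MII oocytes cultured with BYBX in DMSO (2 libraries). BYBX is a fluorescent ligand that binds and stabilizes rG4s, which are stacked structures of guanine-rich RNA. By the study's methods, all oocytes came from 4-week-old C57BL/6 females primed with pregnant mare serum gonadotropin. They were collected at the GV stage, and culture was in M16 medium. No group is described as genetically altered, although the labels give "Treat" as the genotype of the BYBX group and "Control" as that of the others. The labels give neither dose nor culture time. They list no treatment for the GV group, whereas the study's methods describe DMSO as the control treatment of GV and MII oocytes alike, so whether the GV libraries saw the solvent is unsure. Nothing in the labels says whether the libraries of a group came from separate collections, so the p-values measure the spread between these libraries. The cDNA was primed with oligo-dT, so a value follows polyadenylated RNA, and a shorter tail, fewer molecules and fewer intact cells among the pooled oocytes cannot be told apart.

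The values are FPKM, fragments per kilobase of transcript scaled to the number of mapped fragments, which the authors scaled to the 100 pg of spiked ERCC RNA and, between batches, to the GV libraries of each batch. Each library therefore has its own total, from 402113 to 489569 FPKM in GV oocytes, from 109732 to 127254 in MII oocytes with DMSO and from 201482 to 246710 in BYBX-treated MII oocytes. The number of reads behind a value is unknown. Of 10 oocyte markers, 10 were over 1 FPKM in both GV libraries. Of 12 markers of granulosa and cumulus cells, which surround the oocyte, 4 were over 1 FPKM in each GV library and 1 in each MII library. Their summed level was 7.56 and 14.8 FPKM in GV oocytes, 2.15 to 2.72 in MII oocytes with DMSO and 3.21 and 3.67 in BYBX-treated MII oocytes. The 4 over 1 FPKM in GV oocytes were Inha (5.48 and 1.94 FPKM), Cyp19a1 (4.49 and 2.19), Hsd17b1 (2.03 and 1.04) and Kitl (1.12 and 1.03), and the 1 in MII oocytes was Cyp19a1, at 1.29 to 1.58 FPKM with DMSO and 1.49 and 1.72 with BYBX. Pappa was listed at 0 in all 7 libraries, and Amh and Foxl2 were at or below 0.138 FPKM. Fshr was at 0.76 and 0.42 FPKM and Cyp11a1 at 0.57 and 0.56 FPKM in GV oocytes. These markers moved with the stage, and their part in the results was not tested.

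BYBX acts on rG4s, so the guanine runs in the members' own transcripts were looked up first. In the longest protein-coding transcript of each gene (GENCODE vM21, GRCm38, which UCSC calls mm10), an rG4 motif was taken on the sense strand as 4 stretches of 3 or more G, separated by loops of 1 to 7 bases. By this definition 11 of the 78 members held a motif, and all 11 first hits lay in an untranslated region (UTR) and within 1 exon. The 6 of highest GV level are shown, a choice made by that level alone, with the G runs in capitals. The motif of Mrpl40 (chr16:18876664-18876689, minus strand), of Mrps12 (chr7:28741676-28741702, minus strand) and of Mrps7 (chr11:115603926-115603951, plus strand) lay in the 5′ UTR in exon 1. That of Mrps16 (chr14:20391085-20391112, minus strand, exon 3), of Mrps17 (chr5:129719152-129719166, plus strand, exon 4) and of Mrps18c (chr5:100804224-100804242, plus strand, exon 5) lay in the 3′ UTR.
Mrpl40: GGGGcGGGGctgcgtcGGGGGcGGGG
Mrps12: GGGcaaGGGcggttGGGtccttGGGGG
Mrps7: GGGcGGGGGcGGGGcccgcatGGGGG
Mrps16: GGGGGtacaGGGaggtttGGGctttGGG
Mrps17: GGGaGGGaGGGaGGG
Mrps18c: GGGagtGGGtGGGtGGGGG
The sequences run 5′ to 3′ as in the RNA, with T for U. The motif of Mrps17 is the shortest, with single-base loops throughout, and that of Mrps7 begins at the second base of the transcript model. The other 5 members with a motif were Mrpl47 and Mrpl52 in the 5′ UTR and Mrpl19, Mrpl51 and Mrps35 in the 3′ UTR. A motif match says only that the letters are there, not that the structure forms. Among the 75 tested members 9 (12%) held a motif, against 18.6% of the 8873 tested entries that matched a transcript. The members' transcripts were also shorter, with a median of 1339 bases against 2981, and the shares were not adjusted for length.

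In GV oocytes the mitochondrial ribosomal protein genes were well expressed. Their median level was 33.2 and 30.1 FPKM in the 2 libraries, against 14.0 and 11.1 FPKM over the 9202 entries that passed the filter for testing (a mean of the 3 group means of at least 1 FPKM). The median member stood at the 73.1 and 75.9 percentile of the tested entries. After maturation with DMSO the median member was at 0.713, 0.968 and 1.26 FPKM, and its percentile was 39.0, 42.4 and 42.1. In BYBX-treated MII oocytes it was at 12.3 and 10.8 FPKM, with percentiles of 68.5 and 68.4. So the family stood above the typical entry in GV oocytes and in BYBX-treated MII oocytes, and below it in MII oocytes with DMSO.

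**Figure D1:**
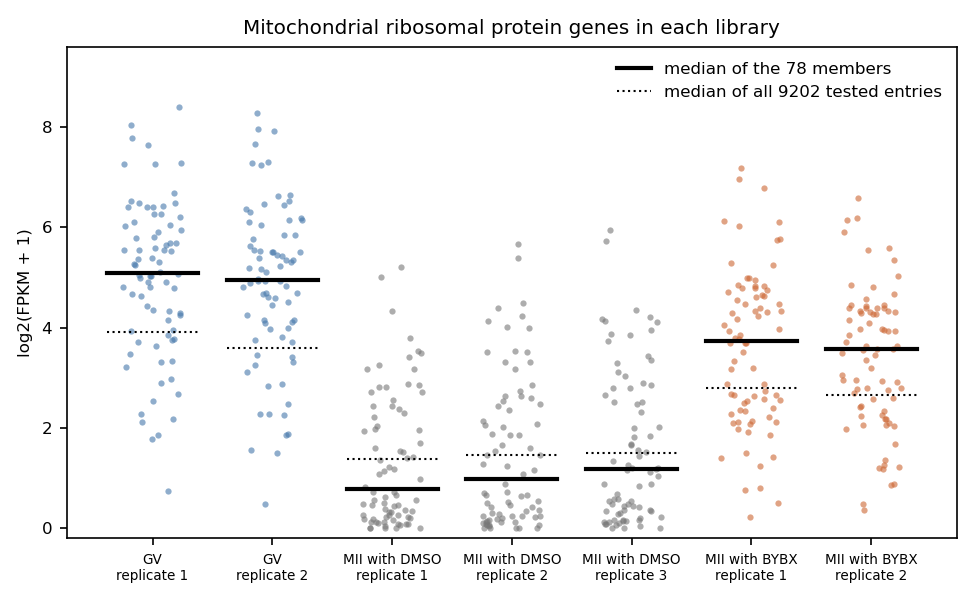
Each point is 1 of the 78 members in 1 library, on the log2(FPKM + 1) axis, with the libraries of GV, MII with DMSO and MII with BYBX along the other axis. Solid bars mark the median of the members (33.2 and 30.1 FPKM in GV, 0.713 to 1.26 with DMSO, 12.3 and 10.8 with BYBX) and dotted bars the median of the 9202 tested entries, which the members' median exceeds in GV and BYBX libraries but not in DMSO libraries.

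Summed over the 78 members, the level was 4077 and 3863 FPKM in GV oocytes, 257, 344 and 386 FPKM in MII oocytes with DMSO, and 1575 and 1190 FPKM in BYBX-treated MII oocytes. The sum with DMSO was 8.29% of the GV sum, while the total of all entries with DMSO was 27.0% of the GV total. With BYBX the corresponding values were 34.8% and 50.3%. As a share of each library's own total, which does not depend on the spike-in scaling, the members took 0.833% and 0.961% in GV oocytes, 0.234%, 0.279% and 0.303% with DMSO, and 0.638% and 0.590% with BYBX. The means were 0.897% ± 0.0904 (SD, n = 2), 0.272% ± 0.0350 (SD, n = 3) and 0.614% ± 0.0338 (SD, n = 2). The 3 groups did not overlap in this share, and no test was made on a sum over chosen genes.

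**Figure D2:**
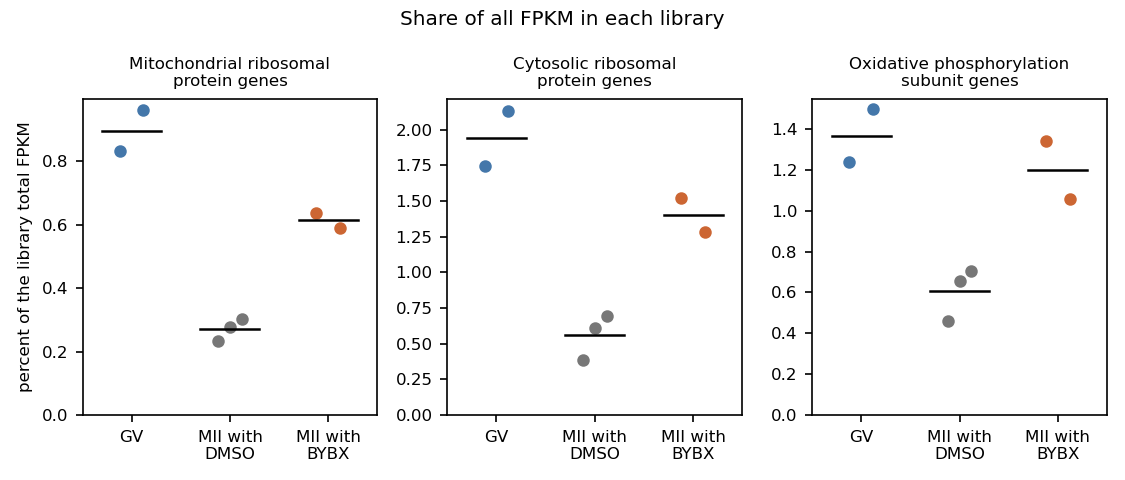
Share of the library's total FPKM, in percent, taken by the mitochondrial ribosomal protein genes, by the cytosolic ribosomal protein genes and by the nuclear genes of oxidative phosphorylation subunits. Points are libraries and bars are group means; in all 3 families the DMSO libraries lie below the GV and BYBX libraries, for the first at 0.234 to 0.303% against 0.833 to 0.961% and 0.590 to 0.638%.

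The first comparison asked how the family changes over control maturation. With limma on log2(FPKM + 1), 75 of the 75 tested members were lower after control maturation than before it at a Benjamini-Hochberg adjusted p under 0.05, where 88.3% of all tested entries were lower. None of the 75 was higher, against 0.272% of all tested entries, and every member's difference was negative, so none was higher at an unadjusted p under 0.05 either. The median difference was -3.53 on the log2 scale for the members and -1.83 for all tested entries. Without the filter, 78 of 78 members were lower, where 65% of 18497 entries were. The call itself is thus shared with most of the transcriptome, and the members differed from the typical entry in the size of the fall.

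The size varied widely among members, with a standard deviation of 1.38 between them on the log2 scale (1.41 over all tested entries). The mean level with DMSO ranged from 0% to 52.0% of the GV mean, with a median of 3.30% and quartiles of 0.901% and 11.7%. Over the 9174 tested entries whose GV mean reached 1 FPKM the median was 16.2%, with quartiles of 4.52% and 41.9%. For 22 members the DMSO mean was under 1% of the GV mean, and for 11 it was at least 20%. The mean of 39 members was under 1 FPKM with DMSO. At such levels the log2(FPKM + 1) scale understates the fall.

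**Figure D3:**
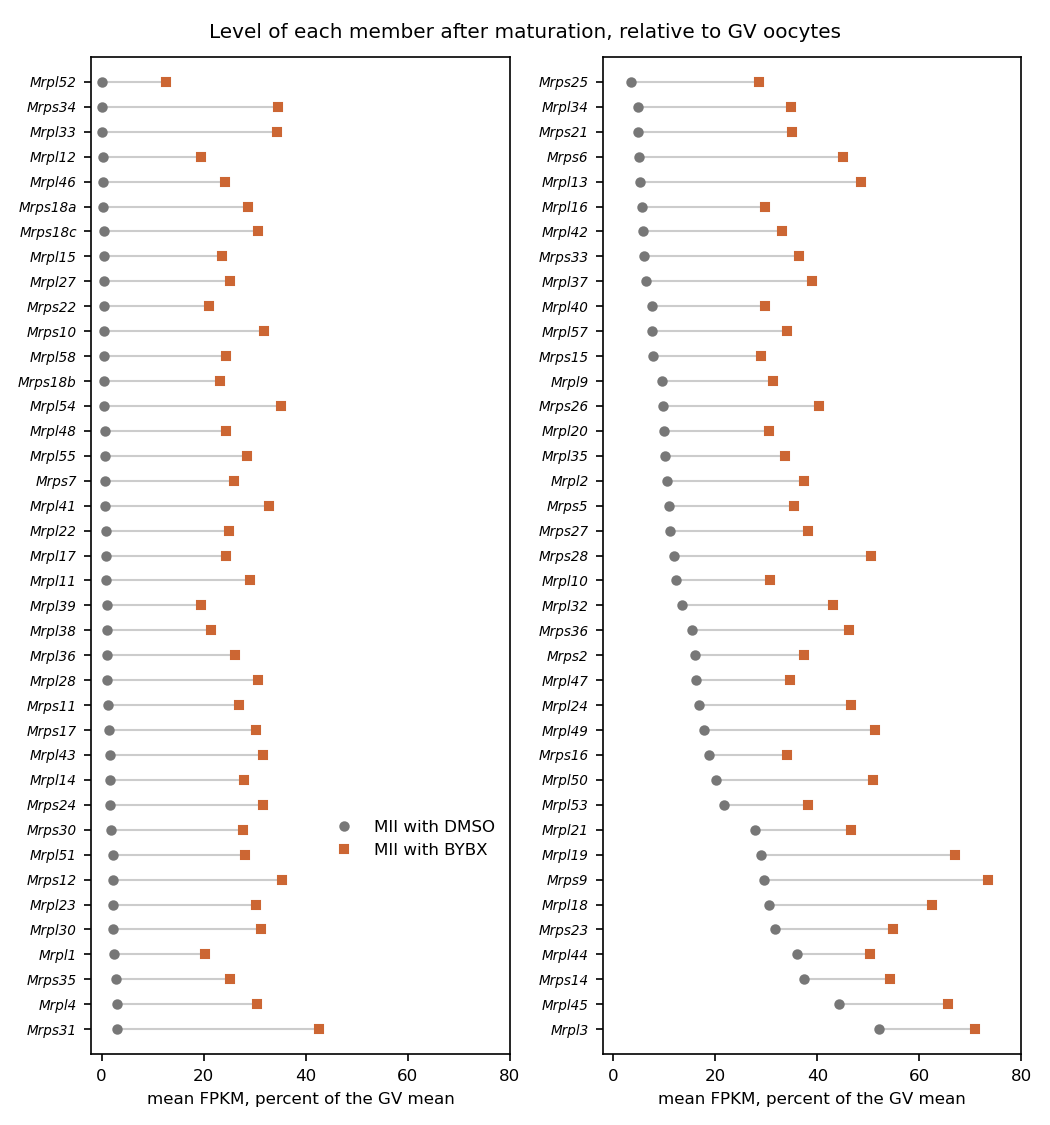
Mean FPKM of each of the 78 members in MII oocytes with DMSO (grey circles) and with BYBX (orange squares), as a percentage of its GV mean, ordered by the DMSO value. The DMSO values run from 0% to 52.0% with a median of 3.30%, whereas the BYBX values lie between 12.6% and 73.5% with a median of 31.8%, to the right of the DMSO value for each member.

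Mrpl12 encodes the protein of the flexible stalk that recruits translation factors to the large subunit. It had the highest GV level and the steepest fall of the family. Its level was 337 and 309 FPKM in GV oocytes, 0.275, 0.336 and 1.31 FPKM with DMSO, and 53.5 and 71.9 FPKM with BYBX. The 3 groups were far apart, and even the highest DMSO library lay below 1% of either GV library. The DMSO difference was -7.68 (SE 0.30, adjusted p = 2.5e-10, limma with Benjamini-Hochberg adjustment), and the DMSO mean was 0.198% of the GV mean.

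The 3 paralogues of the bacterial S18 protein, of which Mrps18a sits in the large subunit and Mrps18b and Mrps18c in the small one, were all low after control maturation. Mrps18a was at 103 and 98.9 FPKM in GV oocytes, at 0.364, 0.241 and 0.408 FPKM with DMSO and at 30.6 and 27.1 FPKM with BYBX. Mrps18c was at 88.3 and 98.0 FPKM, at 0.653, 0.0677 and 0.292 FPKM, and at 37.0 and 20.2 FPKM in the same order. Neither gene reached 1 FPKM in a DMSO library, and both stood over 20 FPKM in each BYBX library. The falls with DMSO were -6.25 and -6.16 (SE 0.23 and 0.29, adjusted p = 2.4e-10 and 4.8e-10, limma with Benjamini-Hochberg adjustment). Mrps18b fell by 4.48 on the log2 scale from a lower start, a mean of 24.2 FPKM.

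A further 3 members were among the 6 steepest falls. Mrpl55, a large-subunit protein, was at 84.1 and 88.0 FPKM in GV oocytes and at 0.541, 0.117 and 0.806 FPKM with DMSO (difference -5.90). Mrps7, a protein of the head of the small subunit that contacts the ribosomal RNA, went from 84.6 and 78.1 FPKM to 0.256, 0.832 and 0.607 FPKM (-5.73). Mrpl46, a mitochondrion-specific protein of the large subunit, went from 64.7 and 56.9 FPKM to 0.0921, 0 and 0.499 FPKM (-5.71). All 3 were below 1 FPKM in each DMSO library, and each had an adjusted p at or below 4.7e-10 (limma, Benjamini-Hochberg).

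At the other end were the 6 members with the smallest differences on the log2 scale. Mrpl3, a core protein near the peptidyl transferase centre, was at 40.5 and 36.5 FPKM in GV oocytes, at 19.3, 21.4 and 19.4 FPKM with DMSO and at 26.6 and 28.0 FPKM with BYBX. Mrpl45, which lies at the exit tunnel and anchors the ribosome to the inner membrane, was at 5.42 and 4.57 FPKM, then 1.93, 2.17 and 2.55 FPKM, and 3.39 and 3.17 FPKM with BYBX. The groups of both genes were in the same order as those of Mrpl12 and did not overlap, but the gaps were small. Their DMSO differences were -0.91 and -0.90 (SE 0.24 and 0.21, adjusted p = 0.0025 and 0.0012, limma with Benjamini-Hochberg adjustment), and both turned to higher when all libraries were given the same total (0.91 and 0.55) or the same median (1.39 and 1.40).

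Mrps23, Mrps14, Mrpl44 and Mrpl50 followed, with differences of -1.37, -1.39, -1.40 and -1.69, and on median-centred values these 4 were also higher (0.93, 0.92, 0.91 and 0.61). Mrpl44 has a fold related to RNase III, and Mrps14 belongs to the head of the small subunit. Mrps14 was at 37.8 and 35.2 FPKM in GV oocytes and at 9.67, 14.9 and 16.4 FPKM with DMSO. Mrpl44 was at 38.9 and 29.4 FPKM and at 12.9, 10.4 and 13.5 FPKM. In both, the lowest GV library stood well above the highest DMSO library.

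Among the members of highest GV level, the share kept with DMSO differed several-fold. Mrpl24, a core protein of the large subunit, was at 264 and 250 FPKM in GV oocytes and at 36.0, 41.0 and 52.3 FPKM with DMSO, which is 16.7% of the GV mean. Mrpl18 was at 154 and 156 FPKM and at 31.4, 49.7 and 60.7 FPKM, or 30.5%. Mrpl14, which binds the silencing factor Malsu1 on the interface of the large subunit, was at 198 and 202 FPKM and at 2.23, 3.38 and 4.60 FPKM, or 1.70%. Mrpl14 and Mrpl18 thus began within a similar range and ended apart, with each Mrpl18 library over 6 times above each Mrpl14 library. Mrps33, Mrpl34 and Mrpl2, the remaining members of this level, kept 5.93%, 4.87% and 10.5%.

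In 7 members at least 1 library was listed at 0, in each case a DMSO library. Mrpl52 and Mrps34 were at 0 in the 3 DMSO libraries, at 2.63 and 1.83 FPKM and at 2.43 and 1.95 FPKM in GV oocytes, and at 0.164 and 0.401 FPKM and 0.704 and 0.816 FPKM with BYBX. Mrpl27 and Mrpl54 were at 0 in 2 DMSO libraries, and Mrpl33, Mrpl46 and Mrps10 in 1. Mrpl33 was at 41.0 and 42.0 FPKM in GV oocytes, at 0, 0.0798 and 0.0767 FPKM with DMSO and at 17.7 and 10.8 FPKM with BYBX. Mrps10 was at 9.13 and 8.58 FPKM, then at 0.0561, 0 and 0.0608 FPKM, then at 4.09 and 1.55 FPKM. No member was listed at 0 in a GV or a BYBX library. Mrpl52, Mrps34 and Mrpl19, which was at 0.672 and 0.396 FPKM in GV oocytes, did not pass the filter for testing.

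**Figure D4:**
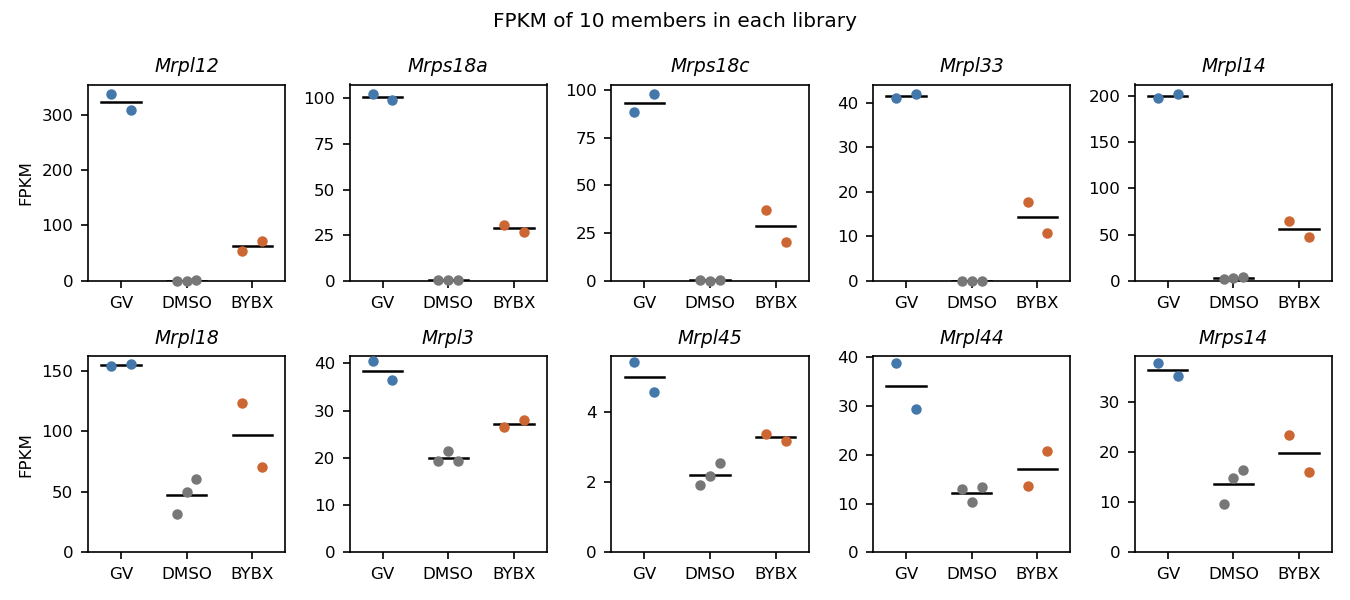
FPKM of 10 members in each library, with 1 point per library, a bar at the group mean and a separate axis from 0 for each gene. Mrpl12, Mrps18a, Mrps18c, Mrpl33 and Mrpl14 (upper row) are near 0 with DMSO and intermediate with BYBX; Mrpl18, Mrpl3, Mrpl45, Mrpl44 and Mrps14 (lower row) keep 30.5% to 52.0% of the GV mean with DMSO, and the DMSO and BYBX libraries of Mrps14 overlap.

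The second comparison asked how the family differs between BYBX-treated and control MII oocytes. In the study, fewer oocytes released the first polar body as the BYBX concentration rose, and those that did had abnormal spindles. Whether the oocytes of the BYBX libraries had matured as far as the controls was not tested. Ligand and progress of maturation therefore cannot be told apart here. With limma, 71 of the 75 tested members were higher with BYBX at an adjusted p under 0.05 (Benjamini-Hochberg), where 65.2% of all tested entries were higher. None was lower, against 0.0326% of all tested entries, and every difference was positive, so none was lower at an unadjusted p under 0.05 either. The median difference was 1.995 on the log2 scale for the members and 0.84 for all tested entries. Without the filter 69 of the 78 members were higher, where 31.3% of 18497 entries were.

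The largest differences belonged to Mrpl12 (5.32), Mrps18a (4.48), Mrps18c (4.43), Mrpl55 (4.10), Mrps7 (3.84) and Mrpl33 (3.82), with standard errors of 0.23 to 0.30 and adjusted p-values of 2.4e-08 to 7.8e-08 (limma, Benjamini-Hochberg). Mrpl55 was at 29.9 and 19.2 FPKM and Mrps7 at 21.2 and 21.0 FPKM with BYBX. All but Mrpl33 were also among the 6 steepest falls with DMSO. The DMSO libraries enter both comparisons, so the sizes are not independent of each other.

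In 4 tested members the difference did not pass the test, namely Mrpl45 (difference 0.42, adjusted p = 0.097), Mrpl3 (0.43, 0.12), Mrpl44 (0.43, 0.17) and Mrps14 (0.51, 0.12, all limma with Benjamini-Hochberg adjustment), and all 4 differences turned negative with the same total or the same median in each library. Without the filter on low levels Mrpl3 passed (adjusted p = 0.046, limma). With BYBX, Mrpl44 was at 13.6 and 20.8 FPKM and Mrps14 at 23.5 and 16.0 FPKM. The lower BYBX library of Mrpl44 stood at the level of its highest DMSO library, and that of Mrps14 below it. Next came Mrps23 and Mrpl53, a protein beside the stalk, which were called higher with differences of 0.62 each (adjusted p = 0.043 and 0.030) and also turned negative under both rescalings. The call of Mrpl53 was lost without DMSO replicate 1 or 3 or without either BYBX library (limma, adjusted p = 0.052 to 0.15), and that of Mrps23 without any 1 of the GV or DMSO libraries or without BYBX replicate 1, without the filter, with a pseudocount of 0.1, and in a fit of only the compared groups (0.051 to 0.30).

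The third comparison set BYBX-treated MII oocytes against GV oocytes, with the libraries of both used above. With limma, 71 of the 75 tested members were lower with BYBX (adjusted p under 0.05, Benjamini-Hochberg), where 69.2% of all tested entries were lower. None was higher, against 0.315% of all entries, and every difference was negative, so none was higher at an unadjusted p under 0.05 either. The median difference was -1.52 for the members and -0.99 for all tested entries. Against the GV mean, the members' BYBX mean had a median of 31.8%, and the tested entries whose GV mean reached 1 FPKM had a median of 43.3%.

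The members lay closer together in this comparison than in the others. Their standard deviation was 0.42 on the log2 scale, against 1.38 for DMSO against GV and 1.06 for BYBX against DMSO. Over all tested entries it was 0.63, 1.41 and 0.93 in the same order, so all entries also lay closest together in this comparison. With BYBX 75 of the 78 members kept at least 20% of the GV mean, where 11 of 78 did with DMSO, and 11 kept at least 50%. Over the 9174 tested entries whose GV mean reached 1 FPKM, the 10th percentile was 24.0% with BYBX and 1.39% with DMSO. Most entries thus also kept at least 20% with BYBX. Their 75th percentile with BYBX was 64.4%, against 38.8% for the 78 members. The lowest differences were those of Mrpl12 (-2.36), Mrpl39 (-2.14), Mrps22 (-2.10) and Mrpl38 (-2.04), all with adjusted p-values under 0.05 (7.9e-05, 5.9e-05, 7.3e-05 and 6.7e-05, limma with Benjamini-Hochberg adjustment). Mrpl39 was at 24.5 and 23.1 FPKM in GV oocytes and at 4.24 and 5.04 FPKM with BYBX, while Mrps22, a small-subunit protein without a bacterial counterpart, was at 27.0 and 20.9 FPKM and at 3.35 and 6.70 FPKM. Mrpl38 was at 32.2 and 24.4 FPKM and at 5.65 and 6.54 FPKM.

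The 4 members that did not pass were Mrps9 (-0.44, adjusted p = 0.23), Mrpl3 (-0.48, 0.11), Mrpl45 (-0.48, 0.076) and Mrpl18 (-0.73, 0.080; limma, Benjamini-Hochberg), and all 4 differences turned positive with the same total or the same median. Without the filter Mrpl3 passed here too (0.032). Mrps9, a small-subunit protein with a bacterial counterpart, was at 32.7 and 27.6 FPKM in GV oocytes, at 6.27, 8.09 and 12.4 FPKM with DMSO and at 26.0 and 18.3 FPKM with BYBX. The higher BYBX library of Mrps9 was near the lower GV library, and its BYBX mean of 73.5% of the GV mean was the highest of the family. Mrpl18 was at 123 and 70.4 FPKM with BYBX, and these 2 libraries were further apart than its GV libraries. Mrpl18 was called lower without BYBX replicate 1 (-1.13, adjusted p = 0.023, limma) and without DMSO replicate 1 (-0.73, 0.039). Mrpl13 had the fourth highest difference (-0.71, adjusted p = 0.016, limma), which was not called without GV replicate 1 (0.14), without BYBX replicate 2 (0.072), with a pseudocount of 0.1 (0.17), without the filter (0.067) or with the same total (0.95), and turned to 0.31 with the same median.

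Over the 3 groups, the libraries were ordered GV above BYBX above DMSO without overlap in 74 of the 75 tested members, where 71.1% of the tested entries had this order. In all, 76 of 78 members did. The exceptions were Mrps14, in which DMSO and BYBX libraries overlapped, and Mrpl19, whose levels of 0.426 and 0.289 FPKM with BYBX overlapped those in GV oocytes. Within a group, BYBX replicate 1 was above replicate 2 for 57 of the 78 members, GV replicate 1 above replicate 2 for 60, and DMSO replicate 1 was the lowest of its group for 44. The libraries with the higher totals were also the ones with the higher member levels in each of these groups.

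Differences on the deposited values depend on the authors' scaling. When every library was given the same total FPKM, the median of all tested entries moved to -0.56 for DMSO against GV, 0.34 for BYBX against DMSO and -0.17 for BYBX against GV, and when every library was given the same median log2 value it moved to 0.47, -0.44 and 0.04. The members' medians were -2.26, 1.67 and -0.57 with the same total, and -1.22, 0.72 and -0.50 with the same median. The members' median thus kept its sign on all 3 scales and lay below, above and below that of all tested entries. The counts of calls were smaller. For DMSO against GV, 63 members were lower (49.5% of all tested entries) and 2 were higher (23.3%) with the same total, and 52 were lower (26.7%) and 10 higher (48.8%) with the same median. For BYBX against DMSO, 59 were higher (39.9%) and 0 lower (8.22%) with the same total, and 42 were higher (18.4%) and 7 lower (43.9%) with the same median. For BYBX against GV, 22 were lower (13.3%) and 0 higher (5.3%) with the same total, and 25 were lower (13.6%) and 1 higher (15.2%) with the same median. The 10 members higher with the same median over control maturation were Mrpl3, Mrpl45, Mrps23, Mrps14, Mrpl44, Mrpl50, Mrps9 (0.61), Mrpl20 (0.54), Mrpl53 (0.50) and Mrpl49 (0.47). Counted by sign alone, 8 of 75 members turned positive with the same total and 15 with the same median in that comparison, 7 and 20 turned negative for BYBX against DMSO, and 8 and 12 turned positive for BYBX against GV. For BYBX against GV the 1 higher member was Mrpl45, and the 2 higher members with the same total over control maturation were Mrpl3 and Mrpl45.

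**Figure D5:**
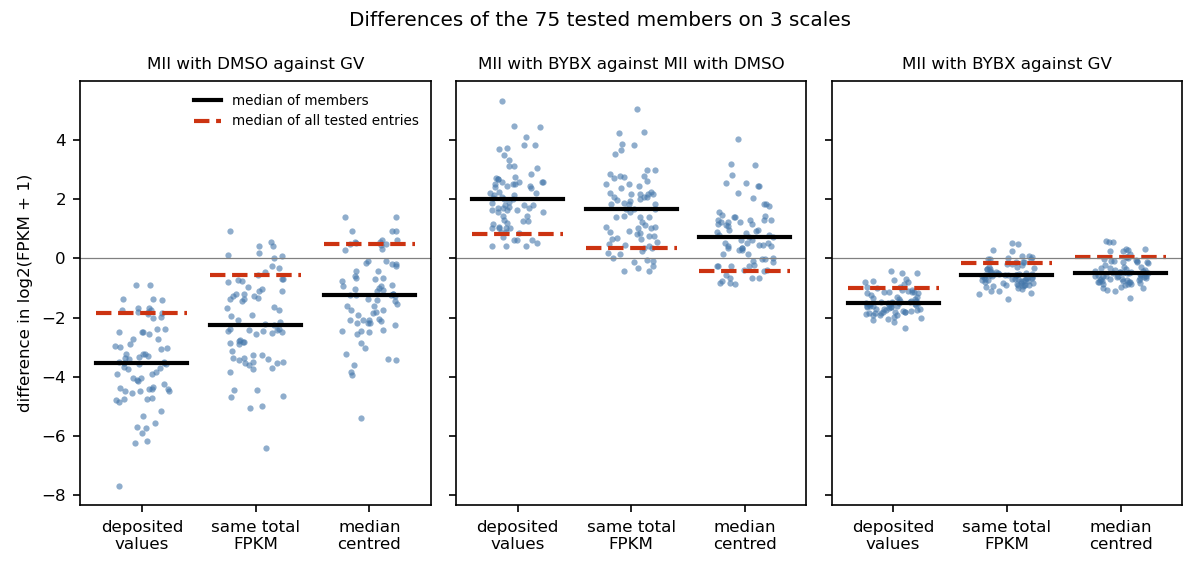
Differences in log2(FPKM + 1) of the 75 tested members (points) in the 3 comparisons, on the deposited values, with every library at the same total FPKM and with every library at the same median. Black bars are medians of the members and red dashed bars medians of all tested entries; for DMSO against GV the members' median moves from -3.53 to -2.26 and -1.22, and single members lie on the other side of 0 after rescaling.

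Both subunits fell with control maturation and were higher with BYBX. The 51 large-subunit members had a summed level of 2682 and 2517 FPKM in GV oocytes, 184, 233 and 261 FPKM with DMSO, and 991 and 785 FPKM with BYBX. The 26 small-subunit members had 1366 and 1312 FPKM, then 68.5, 107 and 118 FPKM, and 568 and 390 FPKM. Among the tested, 49 of 49 large-subunit and 25 of 25 small-subunit members were lower with DMSO than in GV oocytes, and 46 and 24 were higher with BYBX than with DMSO (limma, adjusted p under 0.05), where 88.3% and 65.2% of all tested entries were called so. The median differences were -3.53 and -3.57 for DMSO against GV, and 1.89 and 2.39 for BYBX against DMSO. Whether the classes differ was not tested.

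Members were also described by origin, with or without a bacterial counterpart. Mrps18a and Mrps18b, as paralogues of Mrps18c, and Mrps36 were placed in neither class. The 46 members with a counterpart had a median GV mean of 43.7 FPKM and the 29 mitochondrion-specific members one of 16.8 FPKM, a gap that was not tested. The median kept with DMSO was 4.88% and 3.09%, and with BYBX 31.5% and 33.1%. Over the 45 and 27 that were tested, the median differences were -3.66 and -3.50 for DMSO against GV and 2.05 and 1.88 for BYBX against DMSO. Whether these classes differ was not tested. Mrps36, the member outside the ribosome, was at 28.97 and 33.7 FPKM in GV oocytes, at 4.46, 4.16 and 5.94 FPKM with DMSO and at 14.7 and 14.3 FPKM with BYBX. It fell and was higher with BYBX like most of the family (-2.47 and 1.42, adjusted p = 3.2e-07 and 0.00019, limma with Benjamini-Hochberg adjustment).

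The members with an rG4 motif moved in the same directions as the others. All 9 tested members with a motif were lower with DMSO than in GV oocytes and higher with BYBX than with DMSO (limma, adjusted p under 0.05), where 88.3% and 65.2% of all tested entries were. Their median differences were -4.40 and 2.49, and those of the 66 without a motif were -3.47 and 1.94. The members with a motif also began higher, with a median GV mean of 65.5 FPKM against 30.1 for those without one, untested members included. Spearman's rho between GV level and the 2 differences was -0.40 and 0.43 across the tested members. Whether the motif contrast is separate from the GV level was not tested. Over all matched tested entries the order was the opposite, with -1.59 and 0.77 with a motif and -1.90 and 0.86 without one. Mrps17, with the 3′ UTR motif of single-base loops, was at 84.0 and 69.7 FPKM in GV oocytes, at 0.970, 1.10 and 1.40 FPKM with DMSO and at 26.6 and 19.99 FPKM with BYBX. Mrps12, a decoding-centre protein with a 5′ UTR motif, was at 65.4 and 65.6 FPKM, at 1.11, 2.02 and 1.17 FPKM and at 27.4 and 18.9 FPKM. In both genes each BYBX library was over 9 times above each DMSO library. Mrps16, with a 3′ UTR motif, was at 67.7 and 72.1 FPKM in GV oocytes, at 8.07, 17.8 and 13.7 FPKM with DMSO and at 27.6 and 20.1 FPKM with BYBX. Its BYBX difference of 0.86 (adjusted p = 0.026, limma) was the smallest of the 9 tested, and it turned to -0.42 with the same median. The call of Mrps16 was lost without either GV library, DMSO replicate 1 or BYBX replicate 1, without the filter, and in a fit of only the compared groups (limma, adjusted p = 0.054 to 0.18). Mrpl40, with a 5′ UTR motif, lay between them (-3.51 for DMSO against GV and 1.80 for BYBX against DMSO). The size of the difference thus ranged widely among members with the motif, as it did among those without one.

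Cytoplasmic polyadenylation in maturing oocytes works through short U-rich elements near the 3′ end of the message. After the values had been seen, the last 100 bases of the longest transcript were searched on the sense strand for TTTTAT or TTTTAAT. Such an element was present in 12 of the 75 tested members (16%), against 20.1% of the 8873 matched entries. It was present in Mrpl44, Mrps14 and Mrpl50, which are among the 6 smallest falls, and in Mrpl53, but also in members with steeper falls such as Mrps17 (-5.17), Mrps18b (-4.48) and Mrpl11 (-3.71). For the first 4 of these, 30-base windows of their 3′ UTRs are shown, with the element in capitals. They lie at chr1:79781359-79781388 (plus strand, exon 4), chr1:160202077-160202106 (plus strand, exon 3), chr4:49512637-49512666 (minus strand, exon 2) and chr6:83109909-83109938 (plus strand, exon 3) of GRCm38.
Mrpl44: taTTTTATtccctccagctttgaagtgtag
Mrps14: gtTTTTATgttctatgcatctacttttcct
Mrpl50: acTTTTATgtatcactttattatttctttt
Mrpl53: caTTTTAATtaaatatttattgccaaatga
The median DMSO difference was -2.82 for the 12 members with an element and -3.56 for the 63 without one, and -1.26 and -1.99 over all matched entries. The median GV mean was 19.0 FPKM for members with an element and 37.4 FPKM for the 66 without one, untested members included. The median kept with DMSO was 9.11% and 3.30% of the GV mean. The contrast was not tested apart from the GV level. For BYBX against DMSO the medians were 1.42 and 2.05 for the members and 0.58 and 0.92 over all. Mrpl3, Mrpl45 and Mrps23, which complete the 6 smallest falls, had no such element in this window, and Mrpl14, with a difference of -5.55, had one. Mrpl50 is among the 6 on the log2(FPKM + 1) scale from a low GV mean of 6.39 FPKM. It kept 20.2% of that mean with DMSO, whereas Mrpl18 and Mrps9, without the element, kept 30.5% and 29.6%. A search for other element spellings or positions was not made.

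The members' transcripts are short, with a median length of 1339 bases against 2981 over the matched entries. Across the 75 tested members, Spearman's rho between length and the DMSO difference was 0.27, and between GV level and the DMSO difference -0.40, against 0.33 and -0.41 across the 8873 matched entries. Genes are not independent replicates, the GV libraries enter both measures, and no p-value is given. In the RefSeq promoter windows (GRCm38.p6), which covered 69 of the 78 members, the letters GCGCANGCGC, known from sites of the respiratory factor Nrf1, were found on either strand in 13 members (18.8%) and in 5.19% of 27025 genes. The letters CCGGAAG, known from sites of the ETS family to which Gabpa belongs, were found in 26 (37.7%) and in 9.93%. The 27025 genes are all those with a promoter window, expressed in oocytes or not. They are thus a different set from the tested entries used elsewhere, and no share over tested entries was computed. Both factors are known for the nuclear genes of mitochondrial proteins, and the 2 spellings were also chosen after the values had been seen.

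Genes that act beside the mitochondrial ribosomal proteins are set against the same shares of all tested entries, 88.3% lower for DMSO against GV, 65.2% higher for BYBX against DMSO and 69.2% lower for BYBX against GV. Of 5 proteins of the mitochondrial ribosome under other symbols, all tested, 5 were lower with DMSO than in GV oocytes and 4 were higher with BYBX than with DMSO (limma, adjusted p under 0.05). Dap3, a GTP-binding protein of the small subunit, was at a mean of 49.3 FPKM in GV oocytes, 3.73 with DMSO and 15.03 with BYBX. Aurkaip1 had the largest BYBX difference of these (3.37), and Ptcd3 was the one not called (0.40, adjusted p = 0.18, limma), with -0.35 at the same total.

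Of 24 assembly and rRNA modification factors of the mitochondrial ribosome, 20 were tested, of which 19 were lower with DMSO and 17 higher with BYBX. Mterf4, which with Nsun4 is needed to assemble the subunits, was at a mean of 180 FPKM in GV oocytes, 1.58 with DMSO and 38.2 with BYBX (differences -6.13 and 3.92). Malsu1, which keeps the large subunit from joining too early, was at 48.9, 0.528 and 15.6 FPKM (-5.06 and 3.43). Gtpbp10, a GTPase of the large subunit, was at 10.3, 5.91 and 4.22 FPKM, and its BYBX difference of -0.40 was not called (adjusted p = 0.19, limma) but was called at the same total (-1.21). Mettl17 was not called in either comparison (-0.09 and 0.30).

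Of 15 mitochondrial translation factors, 12 were tested, of which 11 were lower with DMSO and 9 higher with BYBX. Lrpprc, which stabilizes mitochondrial messages, and Mrrf, the recycling factor, had the largest BYBX differences (2.499 and 1.94). Mtif2 and Tsfm, an initiation and an elongation factor, had differences of 0.20 and 0.42 that were not called (adjusted p = 0.43 and 0.12, limma), and both turned negative with the same total or the same median, as Mettl17 did. With BYBX, 5 of 5, 19 of 20 and 9 of 12 tested genes of the 3 lists were lower than in GV oocytes, where 69.2% of all tested entries were.

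The families most like the members were also counted. Of 86 cytosolic ribosomal protein genes, 74 were tested, of which 72 were lower with DMSO than in GV oocytes and 1 higher, and 70 were higher with BYBX than with DMSO. Their median differences were -4.02 and 2.49. Of 89 nuclear genes of oxidative phosphorylation subunits, 79 were tested, of which 75 were lower with DMSO and 73 higher with BYBX, with medians of -3.50 and 2.16. The mitochondrial ribosomal protein genes, with -3.53 and 1.995, lay beside the oxidative phosphorylation subunits. With BYBX against GV, 65 of the 74 cytosolic genes were lower, 62 of the 79 oxidative phosphorylation genes were lower and 1 higher, and 71 of the 75 members were lower. The median kept with DMSO was 1.78%, 4.51% and 3.30% of the GV mean in the 3 families, with medians over tested members in the first 2 and over all members in the third. Differences between the families were not tested.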

How the data were processed

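Smart-seq2 libraries of 7 samples were analysed. Per the study's methods and the submitters' processing notes, the authors trimmed the reads (Trim Galore 0.6.7), aligned them to mm10 (HISAT2 2.2.1) and computed FPKM from uniquely mapped reads on UCSC gene models (Cufflinks 2.2.1), and the deposited FPKM values are normalized to ERCC spike-in and, by batch, to its GV oocytes. The batches and factors are not given in the sources used here. No ERCC or mitochondrial entries are listed. Cufflinks keeps no whole reads, so depth is unknown and the number of libraries limits the precision. Reads shared with near-identical copies could be lost or split. None of the 78 members had a missing value or a repeated name.

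Entries with a mean of the 3 group means of at least 1 FPKM (9202) were tested as log2(FPKM + 1) with limma 3.58.1 in R 4.3.3 (lmFit, eBayes with intensity trend, all 7 libraries in 1 model, 4 residual degrees of freedom), with Benjamini-Hochberg adjustment over all of them and calls at 0.05. The fit was tested on simulated data. Python 3.11.15, numpy 2.4.6, pandas 2.3.3 and matplotlib 3.10.9 were used for tables, motifs and plots. Positions and transcripts are from GENCODE vM21 (78 of 78 members matched), and promoter windows from RefSeq (GRCm38.p6). The members and lists were chosen with earlier results of these data known. Named members are the 8 of highest GV level, the 6 lowest and highest differences for DMSO against GV and BYBX against DMSO, the 4 lowest and highest for BYBX against GV, members not called, the 6 of highest GV level with an rG4 motif, and members listed at 0. Of each other mitochondrial translation list, genes are named from the 2 lowest and 2 highest BYBX differences. Outside this rule, Mrps36, Mrps18b, Mrpl19, Mrpl47, Mrpl51, Mrps35, Mrpl11, Mrpl20, Mrpl49 and Nsun4 were named after their values were seen, and genes of the 2 larger families are not named. Erythrocyte and leukocyte markers, also listed, summed to at most 1.20 and 1.77 FPKM. Same-numbered libraries did not deviate together in each pair of groups, so the number was used as a block only as an alternative. The other alternatives were pseudocount, filter, scale, samples in the fit, variance prior, minimum fold, motif definition, denominator of the share, and leaving out each library.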

Additional observations from a re-analysis of the deposited data

How the results depend on the processing

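Limits come first. The direction of a member on the deposited scale rests on the authors' spike-in and batch scaling, which could not be repeated here, and 2 or 3 libraries per group set the precision. Values near or under 1 FPKM carry an unknown number of reads.

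The count of members lower with DMSO than in GV oocytes was 75 without any 1 library and 73 with a minimum of 2-fold. For BYBX above DMSO it was 63 to 70 without any 1 library and 64 with a minimum of 2-fold, and for BYBX below GV 64 to 72 and 64. The shares of all tested entries were not counted for these alternatives. In the reported fit 88.3%, 65.2% and 69.2% of all tested entries were called in these directions, so the counts are not particular to the family. Restricting the fit to the compared groups, dropping the intensity trend or filtering at 5 FPKM kept every count within 1.5 times the reported one. Scaling moved them most. With the same total, 2 members were higher with DMSO than in GV oocytes (23.3% of all tested entries) and 22 lower with BYBX than in GV oocytes (13.3%). With the same median these were 10 (48.8%) and 25 (13.6%), with 1 higher (15.2%). For BYBX against DMSO, 42 were then higher (18.4%) and 7 lower (43.9%).

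The members' median differences for DMSO against GV, BYBX against DMSO and BYBX against GV were -2.26, 1.67 and -0.57 with the same total, and -1.22, 0.72 and -0.50 with the same median. For the first pair of comparisons they were -4.57 and 2.98 with a pseudocount of 0.1, and -3.72 and 2.17 with the filter at 5 FPKM. Without any 1 library they ranged from -3.57 to -3.46, from 1.84 to 2.07 and from -1.69 to -1.33, and the ends of the last range belong to BYBX replicates 1 and 2. The share of total FPKM without the 10 most abundant entries was 0.318% with DMSO and 0.685% with BYBX. An rG4 motif was found in 17 members with loops of up to 12 bases and in 76 with runs of at least 2 G. Among the 75 tested members the shares were 20% and 97.3%, against 33.3% and 97.2% of the 8873 matched entries.

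Among the single genes recomputed under every alternative, signs reversed only under the rescalings. Other members that reversed are counted in the report and not repeated here. For DMSO against GV with the same total, Mrpl18 was at 0.12, Mrpl3 at 0.91, Mrpl44 at 0.40, Mrpl45 at 0.55, Mrps14 at 0.42 and Mrps23 at 0.16. With the same median they were at 0.56, 1.39, 0.91, 1.40, 0.92 and 0.93, and Mrpl50 was at 0.61. For BYBX against DMSO with the same total, Mrpl3 was at -0.43, Mrpl44 at -0.41, Mrpl45 at -0.26, Mrpl53 at -0.056, Mrps14 at -0.34, Mrps23 at -0.078, Ptcd3 at -0.35, Mettl17 at -0.36, Mtif2 at -0.39 and Tsfm at -0.39. With the same median these were at -0.85, -0.85, -0.86, -0.66, -0.77, -0.66, -0.88, -0.98, -1.07 and -0.86, and Mrpl18 was at -0.26 and Mrps16 at -0.42. For BYBX against GV, Mrpl18, Mrpl3, Mrpl45 and Mrps9 were at 0.26, 0.48, 0.30 and 0.51 with the same total and at 0.30, 0.54, 0.54 and 0.58 with the same median, where Mrpl13 was at 0.31. The cause was not tested beyond these scales.

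As a pairing check, deviations of same-numbered libraries from their group means were correlated. The values were 0.487 and 0.282 for DMSO and GV, -0.601 and -0.348 for BYBX and DMSO, and -0.330 for BYBX and GV. With 2 libraries in a group the deviations mirror each other, so BYBX and GV give 1 value for both numbers. The check cannot decide whether same-numbered libraries share a collection or batch. With the replicate number as a block, 75 members were lower with DMSO than in GV oocytes, 68 higher for BYBX against DMSO, and 70 lower for BYBX against GV. The shares of all tested entries were not counted under the block, and were 88.3%, 65.2% and 69.2% without it. Under the block Mrpl53 and Mrps23 were not called.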
